A study of Homo sapiens with 8 samples.

Results

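The subject is how the ovarian cancer lines SKOV3 and A2780 differ after heating. By the sample titles, 2 samples of SKOV3 at 46 °C (hyperthermia) were set against 2 samples of A2780 at 46 °C (hyperthermia), which are 4 of the 8 arrays of the series. The other 4 arrays, 2 of SKOV3 and 2 of A2780 at 37 °C (control), are used as the unheated comparison. Both are established human cell lines, and no genetic change or agent other than temperature is given for any group. Total RNA was amplified to biotin-labelled RNA and read on Illumina BeadChips, whose beads each carry copies of 1 probe. Exposure length, collection time and the use of separate cultures are not stated, so the p-values measure the spread between these samples, which may be technical.

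Heated cells switch on the heat-shock response, in which the transcription factor HSF1 drives chaperone genes such as the HSP70 family. Immediate early genes such as FOS and EGR1, and stress pathways of the endoplasmic reticulum (ER) and of the transcription factor ATF4, can respond as well. Lines from the same organ also differ without any treatment, because each came from another tumour and keeps its own programme of adhesion, matrix and growth genes. The question was which differences between the lines are present in heated cells.

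Levels below are normalized log2 intensities of the brightest probe of a gene, given for array 1 and then array 2 of a group. Differences are SKOV3 minus A2780 on that scale, with the standard error of the limma fit after ±. A gene was called at a Benjamini-Hochberg adjusted p below 0.05 over 14189 genes, and a single gene is described as higher or lower in SKOV3 only where it was called. Background was the 99th percentile of a normal curve fitted to the dim side of an array's signals. Where a gene was not above it on either array of one line, "at least N-fold" sets the bright group's mean against the lowest signal above background on the dim arrays, or the dim probe's own where higher. Between 36.9% and 37.7% of probes were above background on the 4 heated arrays, whose median signals were 127 and 126 in SKOV3 and 136 and 114 in A2780. The arrays of a group correlated across probes at 0.991 in heated SKOV3 and at 0.995 in heated A2780.

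The labelled identity was checked first. ERBB2, the receptor tyrosine kinase gene known to be amplified in SKOV3, measured 9.31 and 9.25 in heated SKOV3, against 8.97 and 9.10 in heated A2780. The difference of 0.24 ± 0.13 was not called (adjusted p = 0.212, 95% interval -0.04 to 0.53), and at 37 °C it was 0.10 (adjusted p = 0.629). Of 17 tested genes around ERBB2 on chromosome 17, 3 were higher and 2 lower in heated SKOV3, to be read against the 12.3% and 11.8% of all genes given below. With single arrays omitted these counts ran from 1 to 3 higher and from 0 to 2 lower, with 1 and 0 without A2780 hyperthermia 1. Of 12 genes that mark ovarian cancer epithelium, 9 were above background on none of the 4 heated arrays, among them PAX8, WT1, MUC16, KRT7 and CDH1. EPCAM, an epithelial adhesion molecule, and KRT18, a keratin of simple epithelia, were above background on both heated SKOV3 arrays, while none of the 12 was so on both heated A2780 arrays. In a separate list of 20 Müllerian and ovarian cancer markers, 1 (MUC1) was above background on both heated SKOV3 arrays and 2 (MUC1 and KLK10) on both heated A2780 arrays. The lines are therefore called by their labels, and the ERBB2 level of the cells labelled SKOV3 goes against what is known of that line.

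In heated cells 3408 of the 14189 genes were called (24%), with 1739 higher in SKOV3 (12.3%) and 1669 lower (11.8%). The counts of list members below are to be read against these 2 shares. The median difference over all genes was 0.0047. Of the called genes, 419 were at least 2-fold higher and 387 at least 2-fold lower. Leaving out an A2780 array lowered the count most: the fit called 2228 genes without A2780 hyperthermia 1 and 2192 without A2780 hyperthermia 2. Several probes were kept for 1148 of the called genes, and for 937 of these all probes had the same sign.

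**Figure D1:**
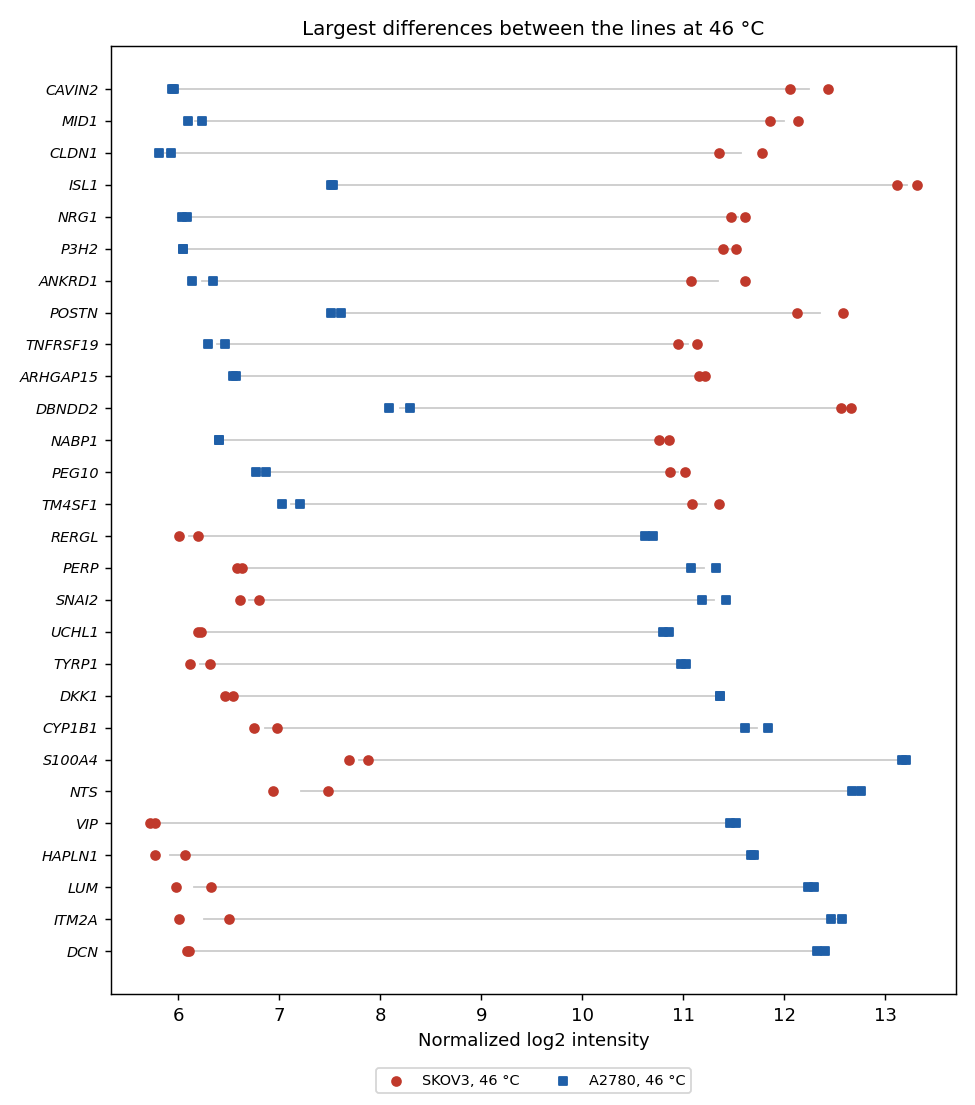
Normalized log2 intensity (horizontal axis) of the 14 genes with the largest positive and the 14 with the largest negative difference SKOV3 minus A2780 at 46 °C, 1 row per gene. Red circles are the 2 heated SKOV3 arrays, blue squares the 2 heated A2780 arrays, and a grey line joins the group means. The genes were chosen among called genes without overlap between the lines, so their separation follows from the choice. Of all 14189 genes, 58.4% did not overlap.

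The genes that stood furthest above A2780 in heated SKOV3 included proteins of the cell surface and of cell contacts. CAVIN2, a coat protein of caveolae, measured 12.06 and 12.43 in heated SKOV3, against 5.96 and 5.93 in heated A2780 (6.30 ± 0.15, at least 54.5-fold higher, adjusted p = 2.18e-12). CLDN1, a claudin of tight junctions, measured 11.36 and 11.78 in heated SKOV3, against 5.81 and 5.93 in heated A2780 (5.70 ± 0.15, at least 34.1-fold higher, adjusted p = 5.93e-12). NRG1, the neuregulin that activates ERBB3 and ERBB4, measured 11.61 and 11.47 in heated SKOV3, against 6.04 and 6.09 in heated A2780 (5.48 ± 0.13, at least 33.5-fold higher, adjusted p = 2.18e-12). All 3 genes were bright in heated SKOV3 and at background in heated A2780, but 2 other kept probes of NRG1 differed by only 2.57 and 0.56. TM4SF1, a membrane protein of the tetraspan type, was higher as well (4.11 ± 0.16), as was TNFRSF19, a receptor of the TNF receptor family (4.66 ± 0.15, at least 23.7-fold higher), although its other probes differed by 0.44 and 0.37.

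Regulators and matrix genes were also among the largest differences. ISL1, a LIM-homeodomain transcription factor, measured 13.11 and 13.31 in heated SKOV3, against 7.53 and 7.51 in heated A2780 (5.69 ± 0.13, adjusted p = 2.18e-12). POSTN, the matrix protein periostin, measured 12.13 and 12.58 in heated SKOV3, against 7.51 and 7.61 in heated A2780 (4.79 ± 0.16, adjusted p = 5.03e-11), and its other probe differed by 4.84. Neither gene had overlapping values between the lines, which was also so for all 3408 called genes and for 58.4% of all genes. MID1, a ubiquitin ligase bound to microtubules (5.83 ± 0.13, at least 45.9-fold higher), P3H2, which hydroxylates prolines of collagen (5.41 ± 0.13, at least 31.6-fold higher), and ANKRD1, a target of the coactivator YAP (5.10 ± 0.17, at least 29.2-fold higher), were higher too. The same was true of ARHGAP15, which turns off the GTPase RAC (4.63 ± 0.12), NABP1, a single-strand DNA-binding protein (4.41 ± 0.13, at least 20.2-fold higher), PEG10, an imprinted gene derived from a retrotransposon (4.13 ± 0.15), and DBNDD2 (4.42 ± 0.13). Other probes gave smaller differences for several of these: 3.15 and -0.0003 for MID1, 2.14 for PEG10 and 0.35 for DBNDD2.

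Matrix proteoglycans and secreted peptides led the genes that were lower in heated SKOV3. DCN, the small leucine-rich proteoglycan decorin, measured 6.08 and 6.11 in heated SKOV3, against 12.41 and 12.32 in heated A2780 (-6.27 ± 0.13, at least 58.9-fold lower, adjusted p = 2.18e-12). LUM, the related proteoglycan lumican, measured 6.33 and 5.98 in heated SKOV3, against 12.24 and 12.30 in heated A2780 (-6.11 ± 0.14, at least 55-fold lower, adjusted p = 2.18e-12). HAPLN1, which links proteoglycans to hyaluronan, was lower by a similar amount (-5.76 ± 0.14, at least 36.8-fold lower). These 3 genes were at background in heated SKOV3. VIP and NTS, which encode neuropeptides, were lower (-5.75 ± 0.14, at least 32.2-fold lower, and -5.51 ± 0.16), and the other probe of VIP differed by -3.75. Other probes of DCN differed by -2.65, -1.85 and -0.17, so the size of its difference depended on the probe, while the other probe of LUM differed by -5.06.

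Several other large differences were in regulators and enzymes. SNAI2, the transcription factor Slug that represses epithelial genes, measured 6.61 and 6.80 in heated SKOV3, against 11.18 and 11.43 in heated A2780 (-4.60 ± 0.14, adjusted p = 2.24e-11). DKK1, a secreted WNT antagonist, measured 6.54 and 6.47 in heated SKOV3, against 11.36 and 11.37 in heated A2780 (-4.86 ± 0.12, adjusted p = 3.11e-12). Their other probes differed by -3.42 and -3.57. Also lower were ITM2A, a membrane protein (-6.27 ± 0.17), S100A4, a calcium-binding protein linked to cell motility (-5.40 ± 0.13), and CYP1B1, a cytochrome P450 that oxidises oestrogens (-4.86 ± 0.17). So were TYRP1, of the melanin pathway (-4.79 ± 0.14, at least 23-fold lower), UCHL1, a neuronal deubiquitinase (-4.62 ± 0.15, at least 20.3-fold lower), PERP, a desmosome protein and p53 target (-4.60 ± 0.14), and RERGL, a RAS-like protein (-4.55 ± 0.15, at least 18.1-fold lower).

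**Figure D2:**
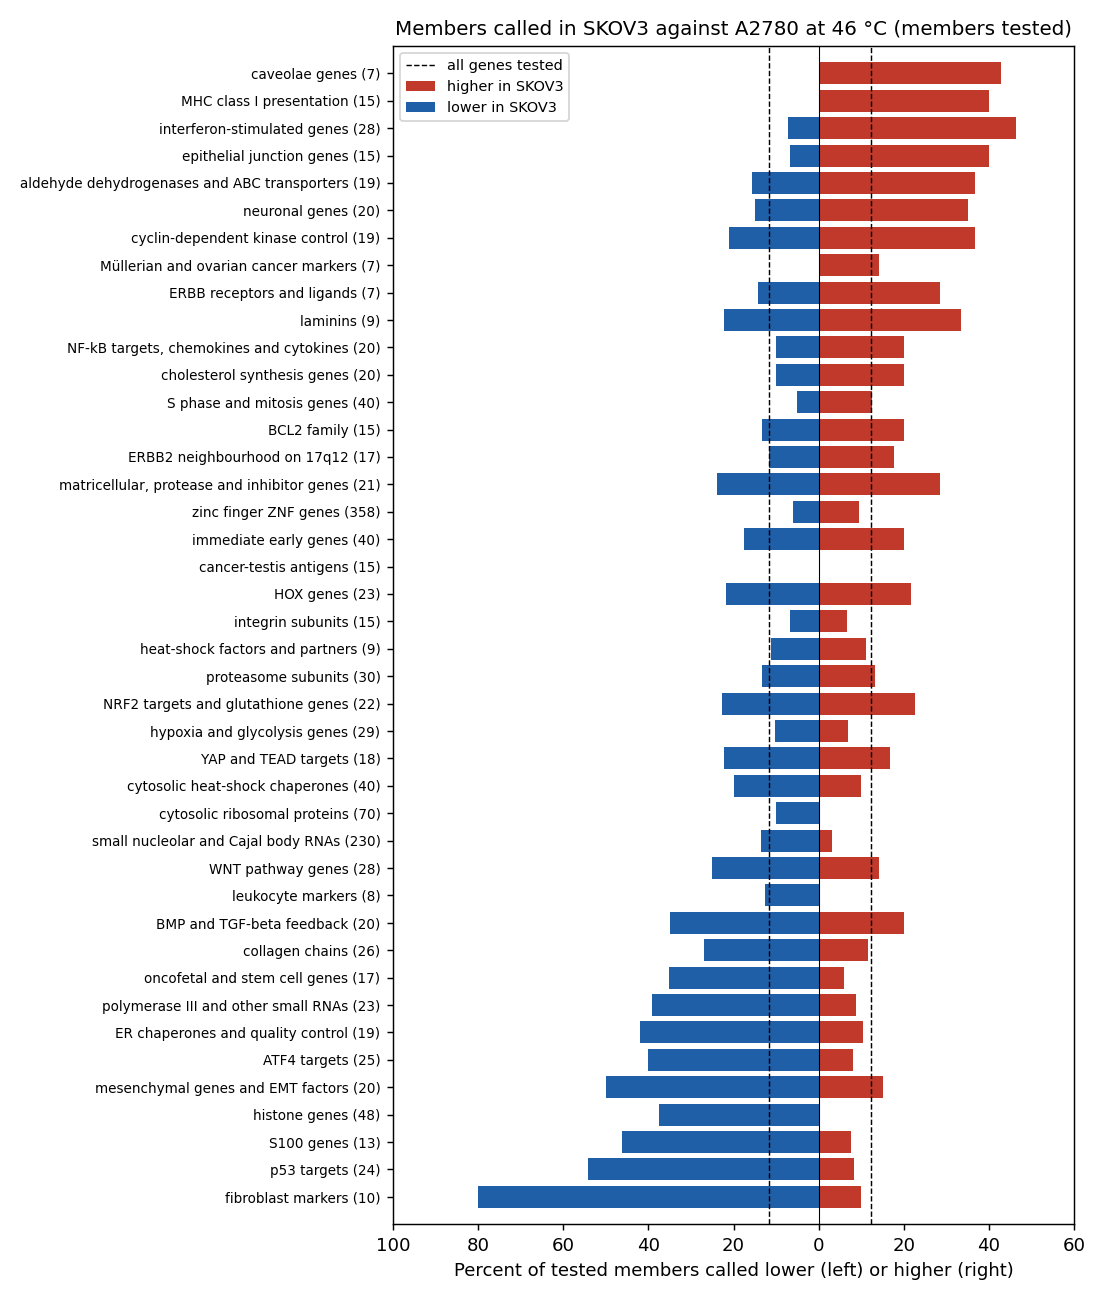
Percent of the tested members of each gene list called lower (blue, left of 0) or higher (red, right of 0) in SKOV3 against A2780 at 46 °C, with the number tested after each name and the same percentages over all 14189 genes as dashed lines. Lists with at least 7 tested members are shown; fibroblast markers and p53 targets reach furthest left, and interferon-stimulated genes furthest right.

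The listed epithelial junction genes were mostly higher in heated SKOV3 where they were called. PERP, the desmosome protein named above, is not in this list and was lower (-4.60). Of 29 listed genes with a probe, 15 passed the filter on mean intensity over all arrays and were tested. A gene bright in only 1 line, such as CLDN1, can pass that filter. CLDN3, CLDN4, CLDN7 and OCLN were among those that did not pass. Of the 15 tested, 6 were higher and 1 was lower (median 0.23), against 12.3% and 11.8% of all genes. After CLDN1 came DSG2, a desmoglein of desmosomes (2.05 ± 0.13), DSC2, a desmocollin (1.39 ± 0.17, at least 2.38-fold higher), EPCAM (1.23 ± 0.16) and CGN, the tight-junction protein cingulin (1.16 ± 0.14). Other probes differed by 0.20 for DSG2, by 0.51 for DSC2 and by 0.58 and 0.61 for EPCAM. PKP3, a plakophilin, was the lower one (-0.41 ± 0.13), at background in heated SKOV3 and above it on 1 of 2 heated A2780 arrays. No lower gene was left when either heated A2780 array, SKOV3 hyperthermia 1 or either SKOV3 control was omitted, and 2 were lower without either A2780 control. Of 11 keratins with a probe, 4 were tested. Of these, 2 were higher and 0 lower, KRT18 (1.77 ± 0.16, at least 2.5-fold higher) and KRT19 (0.44 ± 0.14). Both averaged 6.03 in heated A2780, below the filter value of 6.16, so their levels in SKOV3 helped them to be tested. KRT19 was above background on 1 heated SKOV3 array, and its call was lost when any heated array or either SKOV3 control was omitted. CDH1, the E-cadherin gene, was at background in both lines.

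Of 20 mesenchymal genes and factors of the epithelial-mesenchymal transition, 10 were lower and 3 higher in heated SKOV3 (median -0.48). Of all genes 11.8% were lower and 12.3% higher. TWIST1, a transcription factor of that transition, measured 6.26 and 6.80 in heated SKOV3, against 10.33 and 10.43 in heated A2780 (-3.85 ± 0.17, adjusted p = 7.79e-10). The 3 higher members were POSTN, CDH2, the N-cadherin gene of mesenchymal cells (2.23 ± 0.14), and PRRX1, a mesenchymal homeobox factor (1.57 ± 0.18, but -0.0081 by its other probe). VIM, the intermediate filament vimentin, was bright in both lines and differed by 0.06 (adjusted p = 0.797).

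Of 10 fibroblast markers, 7 of which are also in the mesenchymal list, 8 were lower and 1, POSTN, was higher in heated SKOV3 (median -1.14). The shares over all genes were 11.8% lower and 12.3% higher. COL3A1, a fibrillar collagen chain, measured 7.61 and 8.06 in heated SKOV3, against 11.79 and 12.20 in heated A2780 (-4.16 ± 0.17, adjusted p = 2.98e-10). The summed intensity of these markers ran from 5650 to 7278 in heated SKOV3, against 15656 to 16624 in heated A2780, and 4 of the 10 were above background on both arrays in heated SKOV3, against 9 in heated A2780. In bulk samples fewer cells of a type and less RNA per cell cannot be told apart, and the part of other cells in these results was not tested.

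Markers of other cell types were at background for the most part, with exceptions. Of 13 leukocyte markers, 2 were above background on both heated SKOV3 arrays and 4 on both heated A2780 arrays, with summed intensities of 2681 to 2779 in SKOV3 and 2782 to 3099 in A2780. CD68 (means 10.48 in SKOV3 and 10.50 in A2780) and CD14 (8.87 in SKOV3 and 9.23 in A2780), which mark macrophages and monocytes, were above background on all 4 heated arrays, and CD79A and ITGAM on both A2780 arrays. ITGAM was the list's only called gene (-0.44 ± 0.13, at least 1.1-fold lower), a call lost without A2780 hyperthermia 2 or SKOV3 hyperthermia 1, and PTPRC, CD3D and CD3E were at background in both lines. The part of such cells in the results was not tested. Of 10 endothelial markers, 0 were above background on any heated array. Of 7 erythroid markers, the haemoglobin genes HBA1 (0.36 ± 0.12, at least 1.14-fold higher) and HBA2 (0.38 ± 0.12) were higher in heated SKOV3. Both calls were lost when any of the 4 heated arrays or either SKOV3 control was left out.

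**Figure D3:**
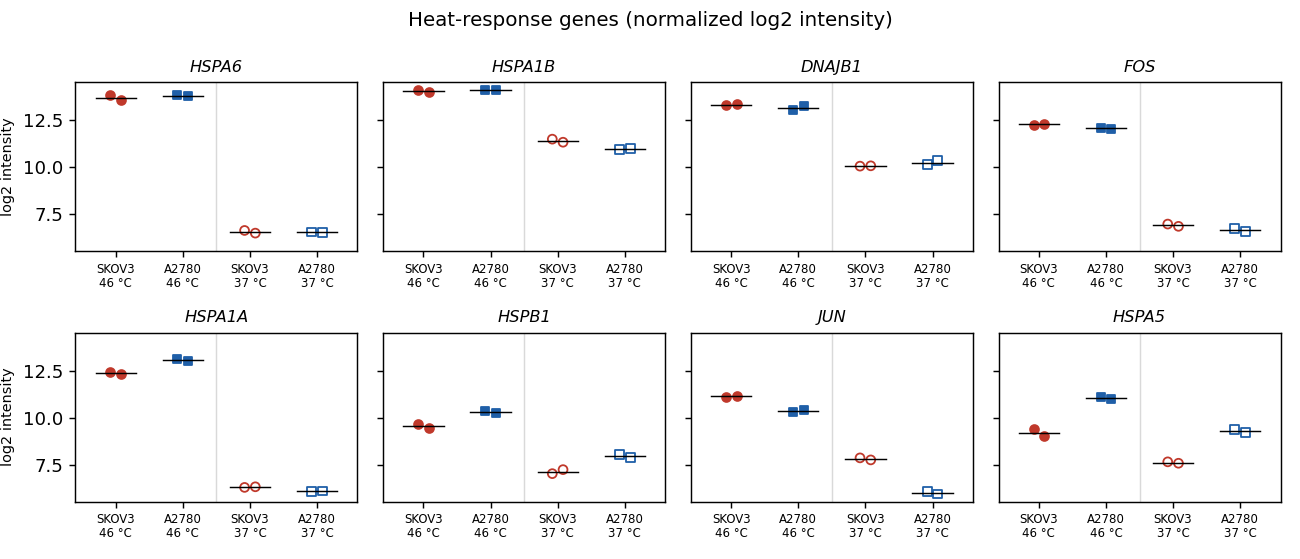
Normalized log2 intensity (vertical axis) of 8 heat-response genes in the 4 groups, SKOV3 as red circles and A2780 as blue squares, filled at 46 °C and open at 37 °C, with a bar at each group mean. The 4 genes of the upper row lie close together in the 2 lines at 46 °C, and in the lower row HSPA1A, HSPB1 and HSPA5 were lower and JUN higher in SKOV3 at 46 °C.

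Heat-response genes were of both kinds, some not called between the heated lines and others, such as HSPA1A, HSPB1 and JUN, called. HSPA6, a heat-inducible HSP70, measured 13.85 and 13.56 in heated SKOV3, against 13.82 and 13.81 in heated A2780 (-0.11 ± 0.13, adjusted p = 0.64, 95% interval -0.40 to 0.18). DNAJB1, an HSP40 partner of HSP70, measured 13.29 and 13.36 in heated SKOV3, against 13.07 and 13.24 in heated A2780 (0.17 ± 0.13, adjusted p = 0.404, 95% interval -0.11 to 0.46). FOS, a subunit of the AP-1 transcription factor, measured 12.27 and 12.28 in heated SKOV3, against 12.10 and 12.06 in heated A2780 (0.20 ± 0.12, adjusted p = 0.305, 95% interval -0.07 to 0.46). None of the 3 was called. Their intervals rest on the spread between these samples, which may be technical, so a difference between the lines is not excluded.

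The inducible HSP70 neighbours gave unequal values. HSPA1A measured 12.44 and 12.34 in heated SKOV3, against 13.10 and 13.00 in heated A2780 (-0.66 ± 0.12, adjusted p = 0.00123). HSPA1B, its near-identical copy, measured 14.11 and 14.03 in heated SKOV3, against 14.11 and 14.10 in heated A2780 (-0.04 ± 0.13, adjusted p = 0.89, 95% interval -0.30 to 0.23). The 2 genes can share probe signal, as can HSPA6 and HSPA7, so the values of each are uncertain. For any probe, a line's own variant under the probe and a difference in level cannot be told apart.

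The upstream sequences of these 3 HSP70 genes are shown because heat-shock elements, to which HSF1 binds, lie in such regions, and those of CITED2 and STC2 because the line differences of these genes changed with temperature. Each is the 250 bases before the gene's start from RefSeq on GRCh38.p14, 5′ to 3′ on the gene's strand, with motif matches in capitals. The motifs searched on both strands were GAANNTTC and TTCNNGAA (core of the heat-shock element in both orders), TGANTCA (AP-1) and TGACGTCA (CRE), which occur in 5.78%, 6.62%, 6.57% and 1.65% of 35116 such windows. HSPA6 (chr1:161524290-161524539, plus strand) holds GAANNTTC at 180 and 69 bases before the start, TTCNNGAA at 74, which overlaps the match at 69, and TGANTCA at 244 and 139. HSPA1A (chr6:31815293-31815542, plus strand) holds GAANNTTC at 106 and HSPA1B (chr6:31827488-31827737, plus strand) holds it at 105. CITED2 (chr6:139374649-139374898, minus strand) holds TTCNNGAA at 95, and STC2 (chr5:173328415-173328664, minus strand) holds no match. In all, 20 genes were searched, of which 18 had a window and 13 held no match. Among the genes whose line difference changed with temperature, CITED2 alone held a match, and IER3 and SNORA12 had no window. Of the other heat-response genes searched, JUN held GAANNTTC at 150, and DNAJB1 and FOS held no match. A match describes letters and is not a site, and no match says only that these letters are not in this window.
HSPA6: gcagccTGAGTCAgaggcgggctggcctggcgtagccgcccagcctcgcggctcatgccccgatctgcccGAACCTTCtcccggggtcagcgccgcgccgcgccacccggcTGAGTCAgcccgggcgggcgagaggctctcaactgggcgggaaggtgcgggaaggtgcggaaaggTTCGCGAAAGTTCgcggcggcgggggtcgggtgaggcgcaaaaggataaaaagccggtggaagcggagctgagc
HSPA1A: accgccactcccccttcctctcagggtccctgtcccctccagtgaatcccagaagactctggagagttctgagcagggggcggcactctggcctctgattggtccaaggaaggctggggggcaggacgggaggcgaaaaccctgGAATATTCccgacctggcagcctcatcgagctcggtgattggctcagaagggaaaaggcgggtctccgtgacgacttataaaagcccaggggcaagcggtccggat
HSPA1B: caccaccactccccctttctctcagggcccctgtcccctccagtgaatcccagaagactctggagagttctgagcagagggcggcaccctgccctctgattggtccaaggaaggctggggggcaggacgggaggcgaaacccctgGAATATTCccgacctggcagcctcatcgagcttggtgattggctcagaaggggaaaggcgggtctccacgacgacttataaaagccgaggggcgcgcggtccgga
CITED2: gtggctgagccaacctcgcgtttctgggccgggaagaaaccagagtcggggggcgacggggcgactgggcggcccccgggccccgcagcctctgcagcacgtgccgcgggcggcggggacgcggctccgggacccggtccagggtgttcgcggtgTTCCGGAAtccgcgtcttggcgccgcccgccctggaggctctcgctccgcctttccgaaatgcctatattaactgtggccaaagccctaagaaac
STC2: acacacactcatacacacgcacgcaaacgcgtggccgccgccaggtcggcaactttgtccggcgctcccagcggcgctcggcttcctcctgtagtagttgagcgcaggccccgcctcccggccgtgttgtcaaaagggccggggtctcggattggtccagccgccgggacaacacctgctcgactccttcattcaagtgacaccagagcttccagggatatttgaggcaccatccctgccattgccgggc

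Over 40 tested cytosolic heat-shock chaperones, 4 were higher and 8 lower in heated SKOV3 (median -0.02), against 12.3% and 11.8% of all genes. The 4 higher became 0 without A2780 hyperthermia 1, 2 without A2780 hyperthermia 2 and 2 without SKOV3 hyperthermia 2. HSPB1, the small heat-shock protein HSP27, measured 9.64 and 9.47 in heated SKOV3, against 10.36 and 10.22 in heated A2780 (-0.74 ± 0.14, adjusted p = 0.00127). SERPINH1, the collagen chaperone HSP47, was lower (-1.15 ± 0.17). CHORDC1, a partner of HSP90, was higher (0.72 ± 0.16), a call lost without A2780 hyperthermia 1. At 37 °C the list held 11 higher and 5 lower genes, where 15.6% of all genes were higher and 13.8% lower. The difference between the temperatures passed limma's adjusted test for 0 of the 40.

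Chaperones of the ER were lower more often than higher. Of 19, 8 were lower and 2 higher in heated SKOV3 (median -0.19), against 11.8% and 12.3% of all genes. At 37 °C 9 were lower and 1 higher (median -0.35), against 13.8% and 15.6% of all genes. Limma's adjusted test of the change with temperature was passed by 0 of the 19. HSPA5, the ER HSP70 known as BiP, averaged 9.20 ± 0.30 in heated SKOV3 and 11.06 ± 0.08 in heated A2780 (SD, n = 2 each; limma difference -1.86 ± 0.15, adjusted p = 4.37e-07), and its difference at 37 °C was -1.66. CANX, the lectin chaperone calnexin (-1.19 ± 0.14), and PDIA4, a disulfide isomerase (-0.73 ± 0.15), were lower. HYOU1, an ER chaperone of the HSP110 type, was higher (0.84 ± 0.14). The 2 higher became 1 when A2780 hyperthermia 1, A2780 hyperthermia 2 or SKOV3 hyperthermia 2 was omitted.

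Targets of ATF4, the factor of the integrated stress response, were lower in heated SKOV3 in 10 of 25 tested genes and higher in 2 (median -0.38). Among all genes 11.8% were lower and 12.3% higher. At 37 °C 8 of the 25 were lower and 3 higher (median -0.20), against 13.8% and 15.6% of all genes. Limma's adjusted test of the change with temperature was passed by 2 of the 25. ATF5, a related transcription factor (-1.27 ± 0.15), and PHGDH, the first enzyme of serine synthesis (-1.25 ± 0.13), were lower. PPP1R15A, which helps to restore translation after stress (0.89 ± 0.13), and TRIB3, a pseudokinase that restrains ATF4 (0.61 ± 0.14, lost without A2780 hyperthermia 2), were higher. ATF4 itself differed by -0.28 (adjusted p = 0.135) and DDIT3, the stress factor CHOP, by -0.14 (adjusted p = 0.601).

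Of 40 immediate early genes, 8 were higher and 7 lower in heated SKOV3, against 12.3% and 11.8% of all genes. At 37 °C 13 of the 40 were higher and 6 lower, against 15.6% and 13.8% of all genes. For 2 of the 40 the difference between the temperatures passed limma's adjusted test. At an unadjusted limma p below 0.05 the line difference was lower at 46 °C for 13 and higher for 1, against 4.77% and 3.77% of all genes. JUN, the partner of FOS in AP-1, measured 11.11 and 11.16 in heated SKOV3, against 10.27 and 10.42 in heated A2780 (0.79 ± 0.13, adjusted p = 0.000358). SGK1, a kinase of salt and stress signalling, measured 8.29 and 8.42 in heated SKOV3, against 9.88 and 10.11 in heated A2780 (-1.64 ± 0.13, adjusted p = 3.85e-07). CSRNP1, a nuclear protein induced by growth signals, was higher (1.64 ± 0.14). The 8 higher genes were 4 when A2780 hyperthermia 1 was left out, 3 for A2780 hyperthermia 2 and 4 for SKOV3 hyperthermia 1.

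Targets of the tumour suppressor p53 were lower in heated SKOV3 in 13 of 24 tested genes and higher in 2 (median -0.48). Among all genes 11.8% were lower and 12.3% higher. At 37 °C 11 of the 24 were lower and 2 higher (median -0.29), against 13.8% and 15.6% of all genes. Limma's adjusted test of the change with temperature was passed by 1 of the 24. CDKN1A, the cell-cycle inhibitor p21, measured 8.08 and 7.99 in heated SKOV3, against 10.16 and 10.24 in heated A2780 (-2.16 ± 0.14, adjusted p = 3.26e-08), and its other probe differed by -0.79. Lower as well were PHLDA3, an inhibitor of AKT (-2.01 ± 0.13, at least 2.96-fold lower), TP53I3, an oxidoreductase (-1.61 ± 0.14, and -0.47 by its other probe), SESN1, a sestrin (-1.54 ± 0.16), and DDB2, of DNA repair (-1.27 ± 0.13). PMAIP1, the apoptosis gene NOXA, was the larger of the 2 exceptions (2.98 ± 0.15, at least 5.49-fold higher, and 1.53 by its other probe), and MDM2, the ubiquitin ligase of p53, differed by 0.0087 (adjusted p = 0.979). Without A2780 hyperthermia 2 the lower genes numbered 8. CDKN2A, the p16 inhibitor gene, which is not among those 24, was higher (1.79 ± 0.15).

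Immune genes were higher in heated SKOV3 more often than lower. Of 28 interferon-stimulated genes, 13 were higher and 2 lower (median 0.32), against 12.3% and 11.8% of all genes. At 37 °C 15 of the 28 were higher and 2 lower (median 0.48), against 15.6% and 13.8% of all genes. Limma's adjusted test of the change with temperature was passed by 0 of the 28. ISG15, a ubiquitin-like modifier, measured 10.95 and 10.70 in heated SKOV3, against 8.60 and 8.56 in heated A2780 (2.24 ± 0.13, adjusted p = 1.6e-08). USP18, which removes ISG15 from proteins (2.00 ± 0.17), and IFITM1, a membrane protein that restricts viral entry (1.68 ± 0.14), were higher, while BST2, the antiviral tetherin, was lower (-2.69 ± 0.19). Of the 2 lower genes 1 was left without A2780 hyperthermia 1.

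Of 15 genes of MHC class I presentation, 6 were higher in heated SKOV3 and 0 lower, against 12.3% and 11.8% of all genes. At 37 °C 5 of the 15 were higher and 0 lower, against 15.6% and 13.8% of all genes. TAP1, a subunit of the peptide transporter, measured 9.29 and 9.06 in heated SKOV3, against 6.46 and 6.65 in heated A2780 (2.62 ± 0.14, adjusted p = 5.19e-09), and HLA-C, a class I heavy chain, was higher (0.95 ± 0.15). The higher genes numbered 3 when A2780 hyperthermia 1 was left out, 2 for A2780 hyperthermia 2 and 2 for SKOV3 hyperthermia 1.

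Signalling genes differed in both directions, with counts to be read against 12.3% of all genes higher and 11.8% lower. Of 7 ERBB receptors and ligands, NRG1 and the receptor gene ERBB3 (1.00 ± 0.13, at least 1.78-fold higher, and 0.33 by its other probe) were higher and HBEGF, a ligand of the EGF receptor, was lower (-0.54 ± 0.13, lost without A2780 hyperthermia 1). Of 28 WNT pathway genes, 7 were lower, among them the secreted antagonists DKK1, SFRP1 (-2.26 ± 0.16, at least 3.31-fold lower) and WIF1 (-2.08 ± 0.19, at least 3.85-fold lower) and the receptor FZD8 (-2.24 ± 0.15, at least 4.24-fold lower), and 4 were higher, among them the receptor FZD6 (1.81 ± 0.17, at least 2.38-fold higher). The 4 higher became 2 without either heated A2780 array. Of 20 genes of BMP and TGF-beta signalling, 7 were lower and 4 higher, with the ligand BMP7 (-3.36 ± 0.15, at least 7.32-fold lower) and the transcription factor HEY1 (2.20 ± 0.15) at the ends.

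Against 11.8% lower and 12.3% higher among all genes at 46 °C, histone genes were called in one direction only. Of 48, 18 were lower and 0 higher in heated SKOV3 (median -0.33), and 11 were lower without A2780 hyperthermia 1. H2AC18, which shares sequence with other H2A genes, measured 9.15 and 8.89 in heated SKOV3, against 10.10 and 10.07 in heated A2780 (-1.06 ± 0.13, adjusted p = 3.37e-05). At 37 °C 5 were lower and 3 higher, against 13.8% and 15.6% of all genes. The difference between the temperatures passed limma's adjusted test for 0 of the 48, while at an unadjusted p below 0.05 the line difference was lower at 46 °C for 17 and higher for 0, against 4.77% and 3.77% of all genes.

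Of 23 small RNAs of polymerase III and of the spliceosome, 9 were lower and 2 higher in heated SKOV3 (median -0.23). Among all genes 11.8% were lower and 12.3% higher. RMRP, the RNA of RNase MRP, measured 11.85 and 11.43 in heated SKOV3, against 10.66 and 10.38 in heated A2780 (1.12 ± 0.16, adjusted p = 0.000107), and RPPH1, the RNA of the related RNase P, was higher too (0.68 ± 0.14). RNU11, of the minor spliceosome (-1.16 ± 0.16), and RNU5A-1, of the major one (-0.88 ± 0.13), were lower. At 37 °C 1 was higher and 1 lower, against 15.6% and 13.8% of all genes. The difference between the temperatures passed limma's adjusted test for 0 of the 23. At an unadjusted limma p below 0.05 the line difference was lower at 46 °C for 9 and higher for 2. Among all genes these shares were 4.77% and 3.77%. The 9 lower RNAs were 4 when A2780 hyperthermia 1 was left out, 5 for A2780 hyperthermia 2 and 5 for SKOV3 hyperthermia 1.

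**Figure D4:**
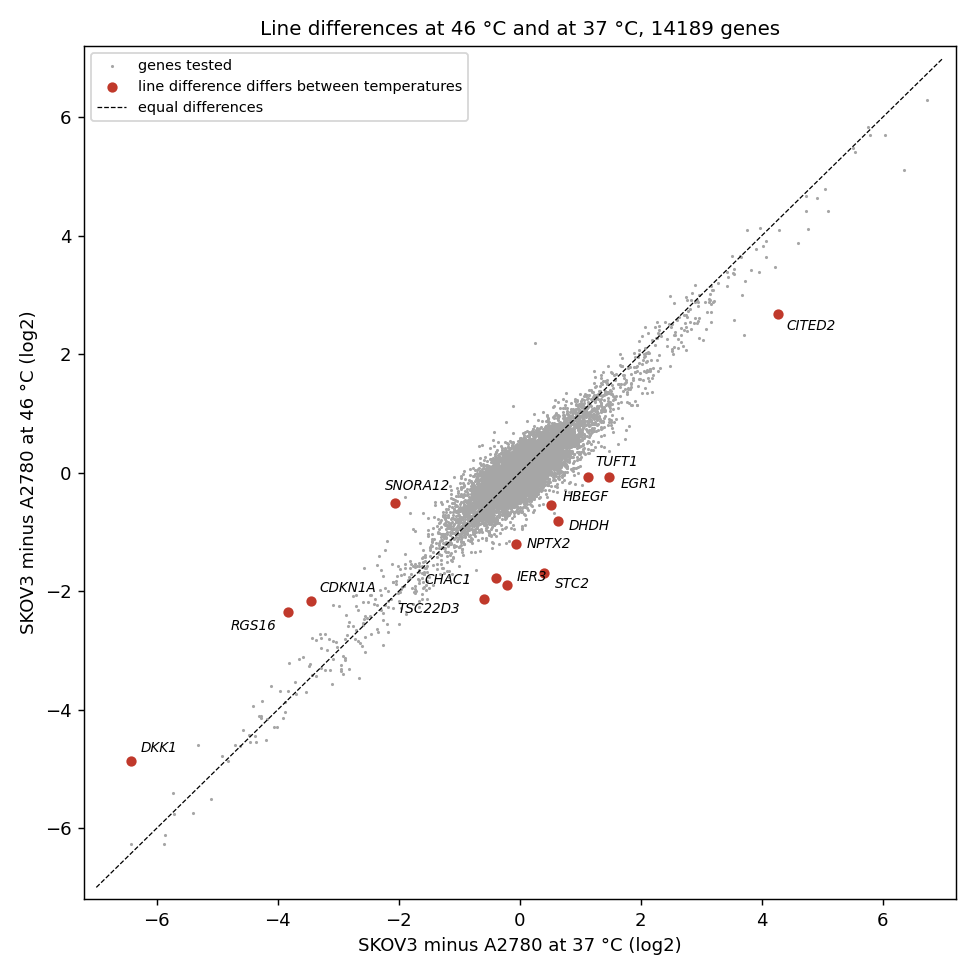
Difference SKOV3 minus A2780 (log2) at 46 °C (vertical axis) against that at 37 °C (horizontal axis) for 14189 genes (grey), with a dashed line of equal differences. The 14 genes whose line difference changed with temperature are red and named; STC2, DHDH and HBEGF lie below 0 at 46 °C and above 0 at 37 °C.

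Most line differences of heated cells were also present at 37 °C, where 4163 genes were called (29.3%), 2210 of them higher and 1953 lower. That balance depended on the scaling between arrays: under median scaling 794 were higher and 4815 lower at 37 °C, with the median of all genes at -0.23. Genes called at both temperatures with the same sign numbered 2597, which is 76.2% of those called at 46 °C and 62.4% of those called at 37 °C, and 9 were called with opposite signs. Of the 806 genes at least 2-fold apart at 46 °C, 792 were also called at 37 °C (98.3%). Another 802 genes were called at 46 °C and not at 37 °C, of which 709 had the same sign at 37 °C and 3 (IER3, CHAC1 and NPTX2) passed the test of the change itself. Across the 14189 genes, which are not independent replicates, the differences at the 2 temperatures correlated at a Pearson r of 0.911, with no array in common.

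The line difference at 46 °C minus that at 37 °C passed the test for 14 genes (0.0987%), of which 10 were negative and 4 positive (2 negative and 10 positive under median scaling), while 1212 had an unadjusted p below 0.05. Upper-quartile signals of the unheated arrays were 243 and 317 in A2780 and 202 and 196 in SKOV3. On A2780 control 2, 41.9% of probes were above background, against 37.5% to 39.1% on the other unheated arrays. The count of 14 genes depended on single arrays. Leaving out A2780 control 1 raised it to 116 genes, while leaving out SKOV3 control 1 left 3, SKOV3 control 2 left 4, A2780 hyperthermia 1 left 4 and A2780 hyperthermia 2 left 7.

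**Figure D5:**
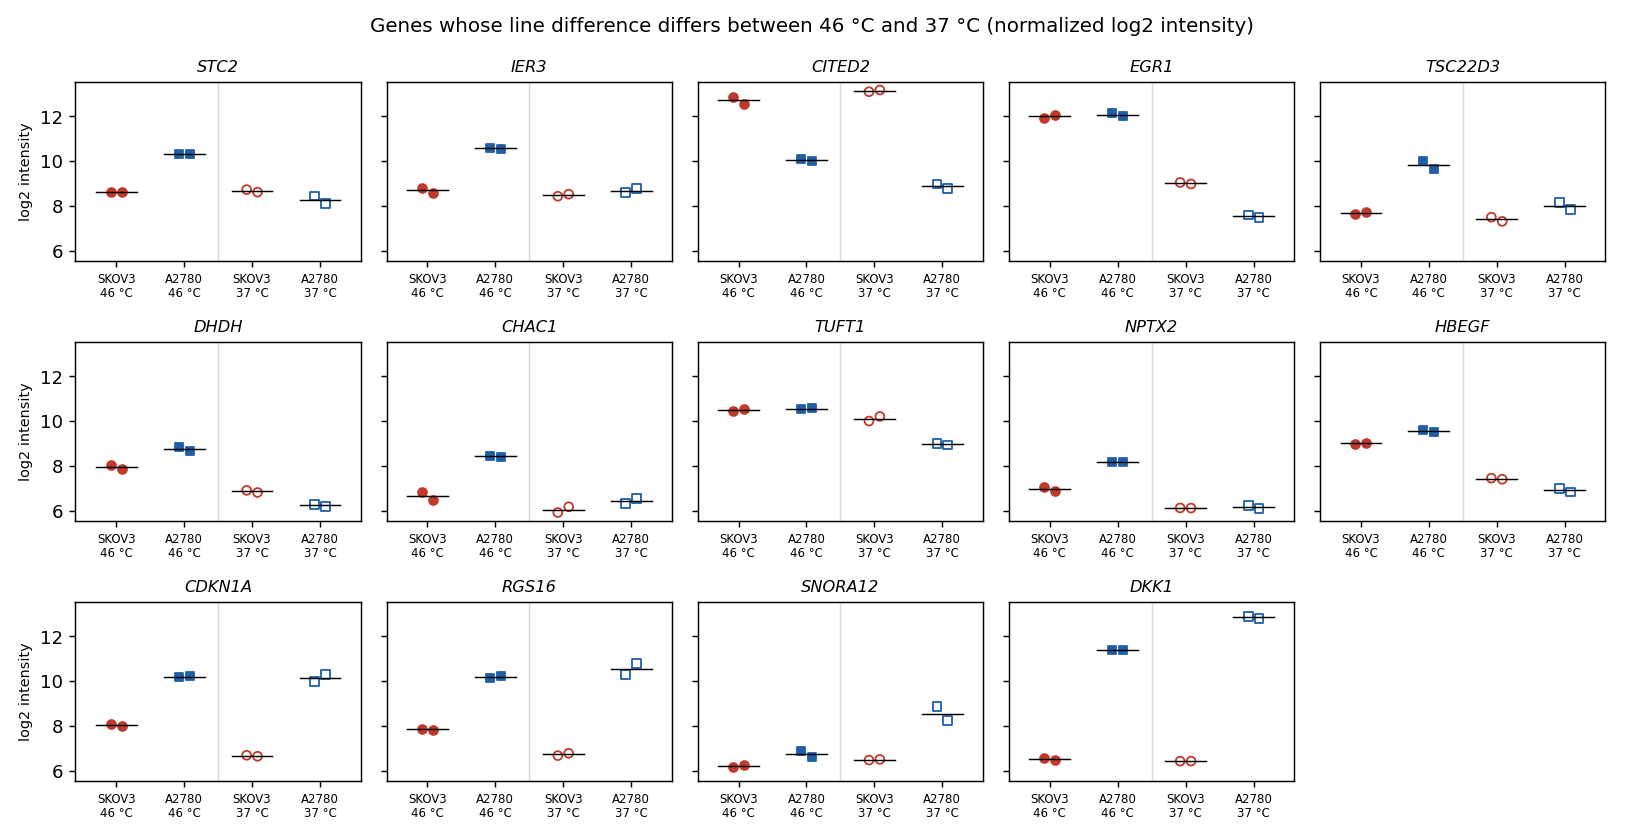
Normalized log2 intensity (vertical axis) of the 14 genes whose line difference changed with temperature, 1 panel per gene, SKOV3 as red circles and A2780 as blue squares, filled at 46 °C and open at 37 °C, with a bar at each group mean. In STC2, IER3 and CHAC1 the heated A2780 arrays stand above the other 3 groups, and in EGR1 and TUFT1 the 2 lines meet at 46 °C.

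In several of these genes heated A2780 stood above the other 3 groups. STC2, the secreted glycoprotein stanniocalcin-2, measured 8.62 and 8.61 in heated SKOV3, against 10.29 and 10.33 in heated A2780. At 37 °C it measured 8.72 and 8.61 in SKOV3, against 8.43 and 8.10 in A2780, and the change of the line difference was -2.10 ± 0.19, adjusted p = 0.000784. The line difference was thus -1.70 at 46 °C and 0.40 at 37 °C. IER3, an early response gene, measured 8.79 and 8.58 in heated SKOV3, against 10.60 and 10.55 in heated A2780 (-1.89 ± 0.13, adjusted p = 9.4e-08), and its line difference at 37 °C was -0.20 (adjusted p = 0.286). CHAC1, which degrades glutathione, measured 6.82 and 6.45 in heated SKOV3, against 8.45 and 8.39 in heated A2780 (-1.78 ± 0.15, adjusted p = 9.95e-07), and its line difference at 37 °C was -0.39. Each of these lay outside the range of SKOV3 at both temperatures.

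TSC22D3, the glucocorticoid-induced leucine zipper, measured 7.65 and 7.71 in heated SKOV3, against 9.98 and 9.64 in heated A2780 (-2.13 ± 0.15, adjusted p = 1.35e-07), and its line difference at 37 °C was -0.60. NPTX2, a secreted pentraxin of neurons, differed by -1.21 at 46 °C and by -0.06 at 37 °C. In the next 2 genes the lines changed places. DHDH, a dihydrodiol dehydrogenase, differed by -0.82 at 46 °C and by 0.62 at 37 °C, and HBEGF by -0.54 at 46 °C and by 0.52 at 37 °C.

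In another set the lines lay closer in heated cells. EGR1, an immediate early zinc-finger factor, measured 11.94 and 12.04 in heated SKOV3, against 12.14 and 11.99 in heated A2780 (-0.08 ± 0.13, adjusted p = 0.727). At 37 °C it measured 9.04 and 8.97 in SKOV3, against 7.59 and 7.47 in A2780 (1.48, adjusted p = 8.14e-07), and the change was -1.56 ± 0.18, adjusted p = 0.0026. The heated arrays of the 2 lines overlapped and the unheated ones did not, where 63.1% of all genes did not overlap at 37 °C. TUFT1, a gene first described in tooth enamel, differed by -0.07 at 46 °C (adjusted p = 0.766) and by 1.13 at 37 °C, and SNORA12, a small nucleolar RNA, by -0.51 at 46 °C (adjusted p = 0.0508) and by -2.06 at 37 °C.

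In the remaining 4 a large line difference was smaller at 46 °C without closing. CITED2, a cofactor that competes with HIF1A for its coactivators, measured 12.88 and 12.55 in heated SKOV3, against 10.08 and 9.98 in heated A2780 (2.68 ± 0.14, adjusted p = 5.39e-09), and its line difference at 37 °C was 4.26. DKK1 differed by -4.86 at 46 °C and by -6.42 at 37 °C. Its heated SKOV3 values lay close to the lowest signals above background on those arrays (6.49 and 6.47), which limits what its differences can show. CDKN1A differed by -2.16 at 46 °C and by -3.46 at 37 °C, and RGS16, an inhibitor of G-protein signalling, by -2.35 at 46 °C and by -3.83 at 37 °C. For CDKN1A the sign of the change depended on the probe, being 1.29 by the brightest and -0.71 by the second.

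Called genes lay next to each other in places. In the order of the RefSeq gene table, 11 runs of at least 5 neighbouring tested genes were all called the same way, the longest being 8 genes on chromosome 13 that were lower in heated SKOV3 (DZIP1, DNAJC3, UGGT2, MBNL2, RAP2A, IPO5, FARP1 and STK24, median -0.86). How many such runs the shares of called genes alone would give was not tested. Over chromosome 13 as a whole, 21 of 247 tested genes were higher (8.5%) and 67 lower (27.1%), against 12.3% and 11.8% of all genes. On chromosome 17, the chromosome of ERBB2, 89 of 861 were higher (10.3%) and 157 lower (18.2%). Chromosome 9 leaned the other way, with 100 of 589 higher (17%) and 51 lower (8.66%), and held a run of higher genes made of MTAP, CDKN2A, CDKN2B, DMRTA1 and TUSC1 (median 0.84), although other probes of CDKN2B differed by -0.06 and 0.52. LUM and DCN stood in a run of lower genes with EPYC, KERA and BTG1 on chromosome 12 (median -4.11), and P3H2 and CLDN1 in a run of higher genes with CLDN16, TMEM207 and IL1RAP on chromosome 3 (median 2.85).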

How the data were processed

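The deposited table holds the linear signal intensity of 47231 probes on 8 arrays, exported with BeadStudio per the submitters' processing notes (version not given in the sources used here); the intensities carry no normalization between arrays. The authors also deposited log2 values that share 1 distribution over all arrays, made by steps not given in the sources used here. With limma 3.58.1 in R 4.3.3, the intensities were background-corrected (normexp, offset 50), quantile-normalized and put on the log2 scale. Probes with a mean above the 40th percentile (6.16) and 1 gene symbol were kept, and the brightest stood for its gene. Of 47231 probes, 30113 had 1 symbol, 8 several and 17110 none.

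One linear model of 4 groups used all arrays (4 residual and 9.39 prior degrees of freedom), with two-sided moderated tests and Benjamini-Hochberg adjustment. Only 2 arrays a group limit the precision. The procedure was run on simulated data with independent normal noise of the fitted spread and 200 of 14189 genes changed. It recovered 100% of changes of size 1 and of size 2 (log2) and called 9 unchanged genes. In the real data 24% of genes were called at 46 °C, with a median size of 0.67, and deviations of equally numbered arrays correlated. The simulation thus checks the steps and does not give the recovery in these data.

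The members and gene lists were chosen with earlier results of these data known, and lists are described without a test. The rule for naming took the 14 largest called differences each way, the largest changes with temperature, up to 5 called members of each list by size, and ERBB2, HSPA6, HSPA1A, HSPA1B, DNAJB1, FOS, EGR1, JUN and STC2. It required groups that did not overlap and a higher group above background. Genes named outside it, such as VIM, MDM2, ATF4, DDIT3, PKP3, CDH2, CD14, CD68 and members of neighbour runs, were chosen after their values were seen. Alternatives varied the values used, background, scaling, filter, prior, probe, minimum change, block, array weights and the arrays kept.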

Additional observations from a re-analysis of the deposited data

Results flagged for a closer look

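For 14 genes the line difference SKOV3 minus A2780 at 46 °C differed from that at 37 °C by limma's test of the change. The change (46 °C minus 37 °C) was negative for STC2 (-2.10), IER3 (-1.68), CITED2 (-1.58), EGR1 (-1.56), TSC22D3 (-1.54), DHDH (-1.44), CHAC1 (-1.39), TUFT1 (-1.20), NPTX2 (-1.15) and HBEGF (-1.06). It was positive for DKK1 (1.56), SNORA12 (1.55), RGS16 (1.48) and CDKN1A (1.29). The limma adjusted p ran from 0.000784 for STC2 to 0.0396 for HBEGF.

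Of 19 alternatives, STC2 and DKK1 each passed under 18 and missed under the minimum change of 2-fold, with changes of -2.26 to -1.53 for STC2 and of 1.504 to 1.87 for DKK1. IER3 passed under 16, EGR1 under 15 and HBEGF under 6.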

How the results depend on the processing

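The line comparison at 46 °C kept within 1.5 times its 3408 calls under all settings tried except 2 and the omission of heated A2780 arrays. Without between-array normalization it called 1919 genes (891 higher, 1028 lower), 1505 of them shared with 37 °C, and with a minimum change of 2-fold 412 (202 higher, 210 lower), 374 shared. At 37 °C median scaling gave 794 higher and 4815 lower genes, with an all-gene median of -0.23, and no normalization 563 and 5470, with a median of -0.35; the 2-fold minimum called 447 (236 higher, 211 lower). For the change with temperature, positive calls numbered 1 with the authors' values and 1 with a floor of 16. Median scaling gave 10 positive and 2 negative, no normalization 8 calls (7 positive, 1 negative), and no filter and array weights 27 each (9 positive, 18 negative). Under the 2-fold minimum limma called 0 (0 positive, 0 negative), against 1212 genes at an unadjusted p below 0.05 with no minimum. Leaving out 1 array at a time gave 2192 to 3669 genes at 46 °C (1062 to 1858 higher, 1065 to 1811 lower), 2579 to 4501 at 37 °C (1389 to 2383 higher, 1190 to 2118 lower), 1838 to 2416 shared, and 3 to 116 changes with temperature (1 to 56 positive, 2 to 60 negative). With the replicate number as a block, 3282 genes were called at 46 °C, 4089 at 37 °C and 15 for the change. Deviations of equally numbered arrays correlated at 0.29 between heated lines, 0.18 between unheated lines, 0.07 within A2780 and -0.25 within SKOV3; the labels name no shared batch, and a batch behind the numbers was not tested. By the second brightest probe the sign turned for CXCL16 (-0.23), DNAJB6 (-0.60), IFIT1 (0.52), MCL1 (0.46), MECOM (-0.035), MED1 (0.049), XAF1 (0.10) and the change of CDKN1A (-0.71). These are the sign turns in which either fit called the gene. Of the other single-gene values under alternatives, 8037 kept their side of the threshold, 646 fell below it and 41 passed it. The 8037 include any sign turns in which neither fit called the gene. The cause of these changes was not tested. Probes near background limit what low genes can show.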

Other observations

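Detoxifying genes differed in both directions in heated cells. MGST1, a membrane-bound glutathione transferase, was higher in SKOV3 (4.10 ± 0.14, at least 12.1-fold higher, adjusted p = 7.68e-11, and 2.09 and 0.42 by its other probes), as was ALDH1A1, a retinal dehydrogenase (2.28 ± 0.17). AKR1C3, an aldo-keto reductase of steroid metabolism whose sequence is close to its relatives', was lower (-3.56 ± 0.16), as was ALDH2, the mitochondrial acetaldehyde enzyme (-2.59 ± 0.20, at least 5.12-fold lower). Of 5 tested metallothioneins, which bind metals, 3 were higher and 0 lower, against 12.3% and 11.8% of all genes. MT2A led them (1.80 ± 0.12).

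LIN28A, an RNA-binding protein of embryonic cells, measured 5.78 and 5.77 in heated SKOV3, against 10.31 and 10.25 in heated A2780 (-4.51 ± 0.13, at least 13.9-fold lower, adjusted p = 1.41e-11). Of 23 HOX genes, 5 were higher and 5 lower in heated SKOV3, against 12.3% and 11.8% of all genes. HOXB8 (1.21 ± 0.14) was among the higher and HOXC13 (-1.42 ± 0.12) among the lower. Of 70 cytosolic ribosomal protein genes, 7 were lower and 0 higher, against 11.8% and 12.3% of all genes, with 3 lower when A2780 hyperthermia 1 was left out and 4 for A2780 hyperthermia 2. The median of that list was -0.04 and turned positive under median scaling and without between-array normalization.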
